A study of Homo sapiens with 4 samples.

Results

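The genes described here are 10 regulators of the BCL2 family in FaDu, an established squamous carcinoma cell line from a tumour of the hypopharynx. They were taken by symbol from the deposited expression table, and all 10 were found, each on a single row, among 25548 gene symbols. The treated FaDu cells received 5 µM 5-aza-2'-deoxycytidine (Aza), a nucleoside that depletes the enzymes of DNA methylation, on days 1 to 3 and 100 nM trichostatin A (TSA), which blocks histone deacetylases, on day 3. The control FaDu cells are labelled as receiving DMSO only, while the treatment protocol names DMSO as vehicle for Aza and ethanol as vehicle for TSA. Polyadenylated RNA was sequenced from 1 stranded library per group, so no value below has an error between replicates, no test was possible, and a difference compares a pair of libraries of 1 cell line. Aza and TSA were given together, and the share of each agent cannot be told apart.

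The BCL2 family decides whether the outer mitochondrial membrane stays intact when a cell is stressed. Pro-survival members (BCL2, BCL2L1 and MCL1) hold the effectors BAX and BAK1 in check. When the effectors are set free they form pores, cytochrome c leaves the mitochondria and caspases are switched on. BH3-only members (here BID, BIK, BBC3, PMAIP1 and BCL2L11) sense damage and tip this balance by occupying the pro-survival proteins or by activating BAX and BAK1, and many carcinomas depend on MCL1 or on BCL-XL, the protein of BCL2L1, to stay alive. Several of these genes are spliced into forms with opposite roles, such as BCL-XL and BCL-XS from BCL2L1. The values here are per gene and do not separate such forms.

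Expression is in FPKM, a unit defined as fragments per transcript length and mapped total. Levels of genes are set side by side here only as a description, since FPKM do not adjust for GC content. Ratios between genes and shares below are of FPKM as deposited, and a trend on GC content, described below, is part of them. The columns summed to 516692 FPKM in the treated and 491963 FPKM in the DMSO library. How many reads stand behind a value is unknown. Of 1316 genes between 0.001 and 0.2 FPKM in both libraries, 58.2% had a treated to DMSO ratio within 0.05% of a ratio of whole numbers up to 6, against a median of 0.0760% when the ratios were rescaled by 0.5 to 5%, so 1 read was worth about the same FPKM in both libraries. Both libraries carried squamous epithelial markers, with none of the 15 under 1 FPKM, KRT17 at 1341 FPKM treated and 1164 FPKM with DMSO, and KRT5 at 226 FPKM treated and 687 FPKM with DMSO. Markers of other cell types were mostly near 0, with 7 of 10 leukocyte, 5 of 6 endothelial and 6 of 8 fibroblast markers under 1 FPKM in the treated library and 8, 6 and 8 in the DMSO library, and with the endothelial genes KDR and CLDN5 listed at 0 in both. Summed levels of 6 endothelial markers were 3.89 and 0.943 FPKM, and those of 8 fibroblast markers 5.20 and 0.817 FPKM, in the treated and DMSO libraries. The 10 leukocyte markers summed to 58.0 FPKM treated and 14.8 FPKM with DMSO, of which CD68, a lysosomal protein also made by other cells, held 51.3 FPKM treated and 13.0 FPKM with DMSO, while the pan-leukocyte gene PTPRC was at 0.0385 FPKM treated and 0.0513 FPKM with DMSO. The UMSCC47 columns of the table were not used: their values did not follow the gene names, with GAPDH, a glycolytic enzyme of every cell, at 0.177 FPKM in the treated and 0.290 FPKM in the DMSO column.

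Aza lowers the methylation of CpG dinucleotides, and the stretches in front of the transcription start are shown for 4 members whose levels differed, BAX, BAK1 and BCL2L1 as higher and PMAIP1 as lower genes. The 250 bases before the first listed start of each gene come from the RefSeq promoter table, on build GRCh38.p14, which is not the hg19 build of the expression table. Each runs 5′ to 3′ on the strand of its gene, and capitals mark the CpG dinucleotides. The positions are chr19:48954625-48954874 on the plus strand, chr6:33580277-33580526 on the minus strand, chr20:31723964-31724213 on the minus strand and chr18:59899746-59899995 on the plus strand.
BAX: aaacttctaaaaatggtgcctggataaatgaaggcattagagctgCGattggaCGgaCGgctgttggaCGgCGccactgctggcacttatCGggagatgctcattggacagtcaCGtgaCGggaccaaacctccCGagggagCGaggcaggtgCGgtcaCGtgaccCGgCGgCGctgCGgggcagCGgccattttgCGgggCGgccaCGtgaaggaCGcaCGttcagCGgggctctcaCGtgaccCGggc
BAK1: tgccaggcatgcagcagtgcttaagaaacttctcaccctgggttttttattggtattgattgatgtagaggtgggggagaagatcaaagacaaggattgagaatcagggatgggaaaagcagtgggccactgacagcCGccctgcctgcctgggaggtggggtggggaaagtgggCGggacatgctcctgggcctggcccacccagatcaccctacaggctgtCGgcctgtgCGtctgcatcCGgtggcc
BCL2L1: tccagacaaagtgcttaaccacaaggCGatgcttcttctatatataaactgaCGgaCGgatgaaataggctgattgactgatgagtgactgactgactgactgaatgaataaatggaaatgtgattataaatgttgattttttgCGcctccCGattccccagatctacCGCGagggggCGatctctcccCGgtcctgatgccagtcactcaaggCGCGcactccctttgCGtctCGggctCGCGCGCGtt
PMAIP1: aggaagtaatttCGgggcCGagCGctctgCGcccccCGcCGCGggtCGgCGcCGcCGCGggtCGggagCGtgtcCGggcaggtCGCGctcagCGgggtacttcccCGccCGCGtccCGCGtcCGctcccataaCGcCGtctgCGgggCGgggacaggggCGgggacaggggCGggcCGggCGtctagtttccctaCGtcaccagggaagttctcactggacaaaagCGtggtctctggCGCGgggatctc

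These stretches held unlike numbers of CpG. BAX had 25, BAK1 had 5, BCL2L1 had 17 and PMAIP1 had 36, against a median of 11 over 27303 RefSeq promoters of the same length and of 21 over the 8882 that belong to genes measured here. PMAIP1 had the most CpG of the 8 members found in the table, and BAK1 and BBC3 lay under the lower quartile of 14 of the promoters of measured genes. The other 4 members found were BID with 30, BCL2L11 with 34, BCL2 with 24 and BBC3 with 4. BIK and MCL1 were not matched in the table. The GC box, the 6-letter element GGGCGG that SP1 binds, was searched on both strands, where each match also holds a CpG. It occurred 4 times before PMAIP1 and before BID, 3 times before BCL2L11, 2 times before BAK1 and 1 time before BAX, and not before BCL2L1, BCL2 or BBC3, so that 5 of the 8 held at least 1, as did 67.2% of the promoters of measured genes and 42.3% of all promoters. Methylation of these stretches was not measured, and several of the genes have other starts. A relation of CpG number to the differences was not tested.

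In the treated library both pore-forming effectors were higher and the highest member, the pro-survival gene MCL1, was lower. Genes at 1 FPKM or more in the treated or the DMSO library counted as measured, and as higher or lower at a 2-fold difference of FPKM + 1, treated over DMSO. By that rule 9 of the 10 members were measured, with 4 higher (BIK, BAK1, BCL2L1 and BAX), 2 lower (PMAIP1 and MCL1) and 3 within 2-fold. Among all 13558 measured genes 16.1% were higher and 5.21% lower. After a trend of the differences on GC content, described below, was subtracted, only BIK was still past 2-fold, so that 1 member was higher and 0 were lower. The members had a median log2 change of 0.16, or 0.22 with the unmeasured BCL2 included, near the median of 0.13 over all measured genes.

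**Figure D1:**
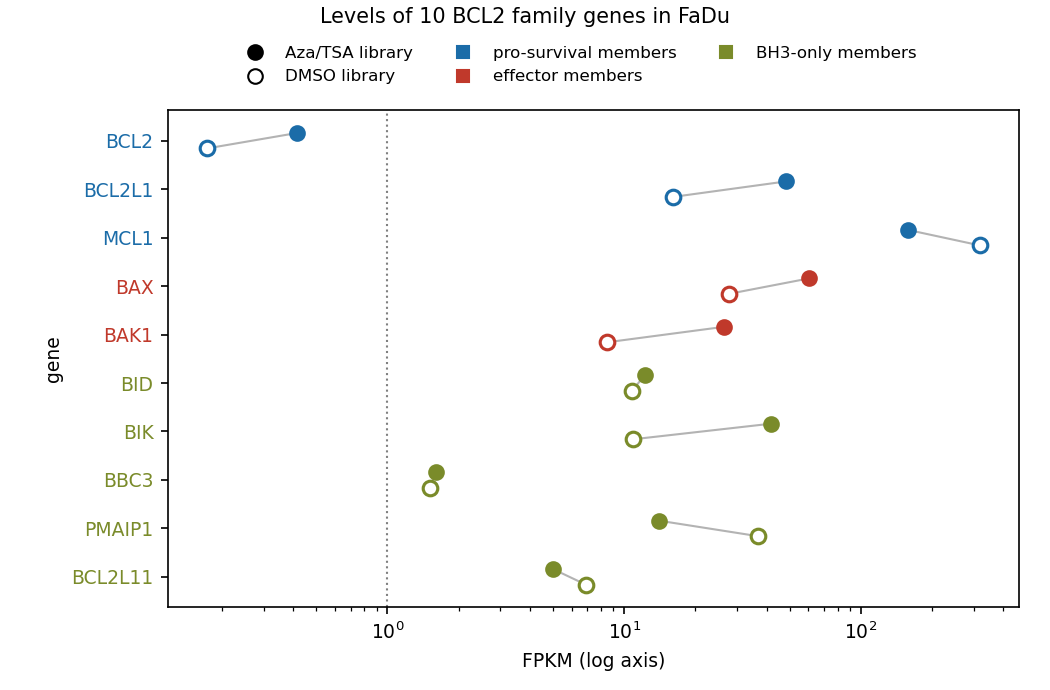
FPKM of each gene on a log axis, with the Aza/TSA library as filled points and the DMSO library as open points, 1 library each; names and points are coloured by class, and the dotted line marks 1 FPKM. MCL1 is the highest gene in both libraries, at 158 FPKM treated and 318 FPKM with DMSO, and BCL2 the lowest, at 0.416 FPKM treated and 0.172 FPKM with DMSO.

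The 2 measured pro-survival members went in opposite directions. MCL1, a short-lived protein that restrains BAK1 in particular, was at 158 FPKM in the treated library and at 318 FPKM in the DMSO library. It was the highest member in both, above 96.8% of measured genes in the treated and 98.5% in the DMSO library. The difference of 2.01-fold, a log2 change of −1.01, lies just past the threshold, and was −0.83, within 2-fold, after GC correction. BCL2L1, which encodes BCL-XL, was at 48.3 FPKM in the treated library and at 16.1 FPKM in the DMSO library, a log2 change of 1.53, higher than that of 93.4% of measured genes. BCL2, the founding member of the family, was listed at 0.416 FPKM in the treated library and at 0.172 FPKM in the DMSO library. Both values are under 1 FPKM, so that BCL2 did not count as measured and its difference is not read here. The level of MCL1 as deposited was 3.27 times that of BCL2L1 in the treated library, against 19.8 times in the DMSO library.

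Both effectors were higher in the treated library, with a median log2 change of 1.32, the mean of their values. After GC correction both were within 2-fold, BAX at 0.35 and BAK1 at 0.88. BAX, which moves from the cytosol to mitochondria when activated, was at 60.6 FPKM in the treated library and at 27.7 FPKM in the DMSO library, a log2 change of 1.10. BAK1, which resides in the mitochondrial membrane, was at 26.4 FPKM in the treated library and at 8.44 FPKM in the DMSO library, a log2 change of 1.54, higher than that of 93.6% of measured genes. The level of BAX was 2.29 times that of BAK1 in the treated and 3.28 times in the DMSO library. BAK1 has the pseudogenes BAK1P1 and BAK1P2, with which reads could be shared. The level of BCL2L1, relative to that of BAK1, was nearly the same in both libraries, at 1.83 treated and 1.90 with DMSO.

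Of the 5 BH3-only members 1 was higher, 1 lower and 3 within 2-fold, against 16.1% higher and 5.21% lower among all measured genes. Their median log2 change was 0.05, and −0.24 after GC correction. BIK, a BH3-only protein of the endoplasmic reticulum, was at 41.6 FPKM in the treated library and at 10.9 FPKM in the DMSO library. Its log2 change of 1.84 was the largest of the members and above that of 95.6% of measured genes. PMAIP1, which encodes NOXA, a selective binder of MCL1 that promotes its breakdown, was at 14.0 FPKM in the treated library and at 36.7 FPKM in the DMSO library. Its log2 change of −1.33 was below that of all but 2.10% of measured genes, and was −0.96, within 2-fold, after GC correction. The level of BIK was 2.97 times that of PMAIP1 in the treated library and 0.298 times in the DMSO library, so that their order turned round. MCL1 and its binder PMAIP1 were both lower, and the level of MCL1 was 11.3 times that of PMAIP1 in the treated and 8.66 times in the DMSO library.

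The other BH3-only genes differed by less than 2-fold. BID, which caspase-8 cleaves to link death receptors to mitochondria, was at 12.2 FPKM in the treated library and at 10.8 FPKM in the DMSO library. BCL2L11, which encodes BIM, a binder of every pro-survival member, was at 5.01 FPKM treated and 6.89 FPKM with DMSO, a log2 change of −0.39. BBC3, which encodes PUMA, a binder of every pro-survival member, was at 1.61 FPKM treated and 1.52 FPKM with DMSO. It was among the lowest measured genes in both libraries, above 11.9% of them in the treated and 17.0% in the DMSO library.

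**Figure D2:**
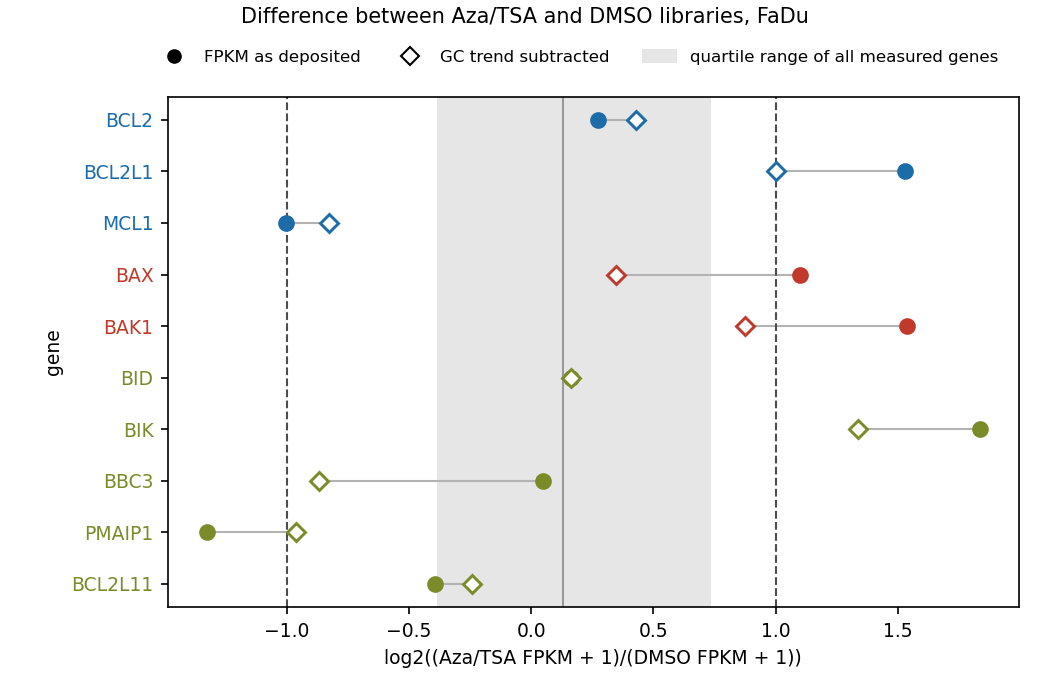
Log2 change of each gene, treated over DMSO on the FPKM + 1 scale, as deposited (filled points) and after the trend on GC content was subtracted (open diamonds), 1 library per group. The grey band is the range between the quartiles of all measured genes, −0.38 to 0.73 as deposited, and dashed lines mark 2-fold; after the subtraction only BIK, at 1.34, lies past a dashed line.

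From the highest level to the lowest, the treated library ran MCL1, BAX, BCL2L1, BIK, BAK1, PMAIP1, BID, BCL2L11, BBC3 and BCL2. In the DMSO library the order was MCL1, PMAIP1, BAX, BCL2L1, BIK, BID, BAK1, BCL2L11, BBC3 and BCL2. PMAIP1 was the sixth when treated and the second with DMSO. In the DMSO library BIK, BID and BAK1 were close, between 8.44 and 10.9 FPKM, and PMAIP1 and BID were at 14.0 and 12.2 FPKM in the treated library, so that without replicates the order of these neighbours cannot be relied on. Over the 10 genes the summed level was 368 FPKM in the treated and 437 FPKM in the DMSO library. The effectors held 23.6% of this sum in the treated and 8.26% in the DMSO library, and the BH3-only members 20.2% in the treated and 15.3% in the DMSO library. Pro-survival members held 56.1% in the treated and 76.4% in the DMSO library, of which MCL1 alone made up 42.9% of the sum when treated and 72.7% with DMSO, and BCL2L1 made up 13.1% when treated and 3.67% with DMSO.

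The share of the classes turned on MCL1. Without it, a set chosen after the values were seen, the pro-survival share was 23.2% in the treated and 13.6% in the DMSO library, the reverse order of that with MCL1. The effector share of these 9 genes was 41.4% treated and 30.3% with DMSO, and the BH3-only share 35.4% treated and 56.1% with DMSO. The summed BH3-only level itself differed little, at 74.5 FPKM treated and 66.9 FPKM with DMSO, with BIK higher and PMAIP1 lower. Shares and sums are of FPKM as deposited and were not recomputed after GC correction. That correction brought every called member but BIK within 2-fold.

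**Figure D3:**
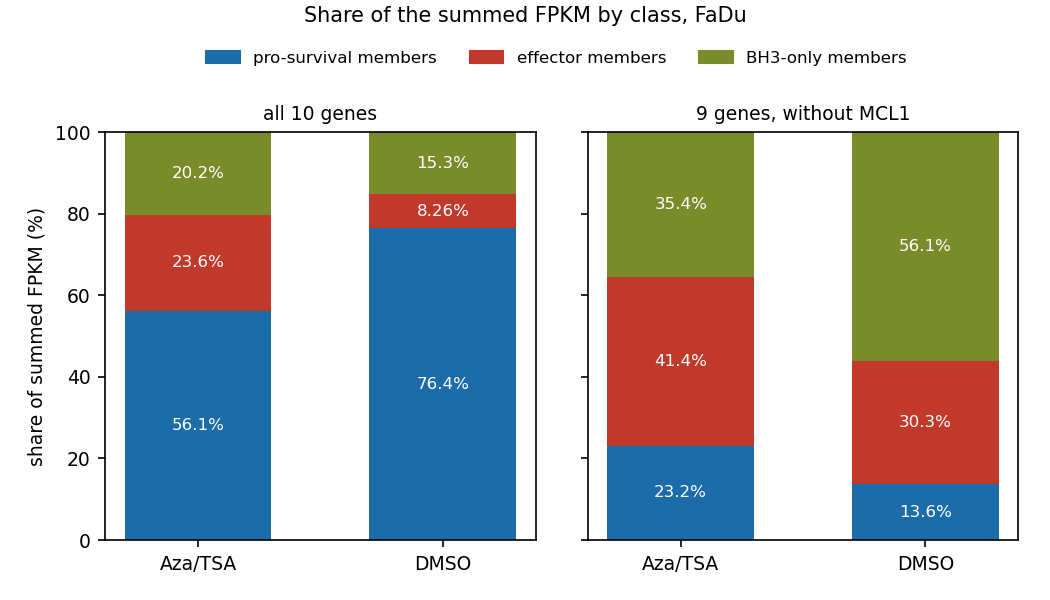
Share of the summed FPKM held by pro-survival, effector and BH3-only genes in the Aza/TSA and DMSO libraries, for all 10 genes (left) and without MCL1 (right), 1 library per bar. The effector share is larger in the treated library in both panels, at 23.6% against 8.26% and at 41.4% against 30.3%. The pro-survival share is smaller in the treated library with MCL1 and larger without it. Shares are of FPKM as deposited, without GC correction.

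The difference between the libraries followed the GC content of transcripts across genes. Across 6642 genes that reached 5 FPKM in each library, all from the same library pair, the Spearman correlation of log2 change with GC content was 0.67, given as a description. The 4 higher members had a GC content of 56.0 to 60.6%, and the 2 lower members one of 41.4 and 45.1%. After the trend was subtracted, 1 member was higher and none lower, against 7.41% of 11566 genes higher and 4.49% lower. The member still past 2-fold was BIK, with a corrected log2 change of 1.34, above 95.2% of genes. BCL2L1 was at 1.00, a value just under the threshold before rounding, BAK1 at 0.88, MCL1 at −0.83 and PMAIP1 at −0.96, below all but 4.97% of genes. BAX came to 0.35, above 73.6% of genes, after 0.75 had been subtracted as the trend at its GC content. Whether the trend belongs to the treatment or to the making of the libraries cannot be told apart with 1 library per group.

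BBC3 had the highest GC content of the members, 64.4%. Its log2 change of 0.05 was near the middle of all measured genes, above 46.3% of them. After correction it was −0.87, above only 6.35% of genes. With a pseudocount of 0.1 its uncorrected change was 0.08.

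**Figure D4:**
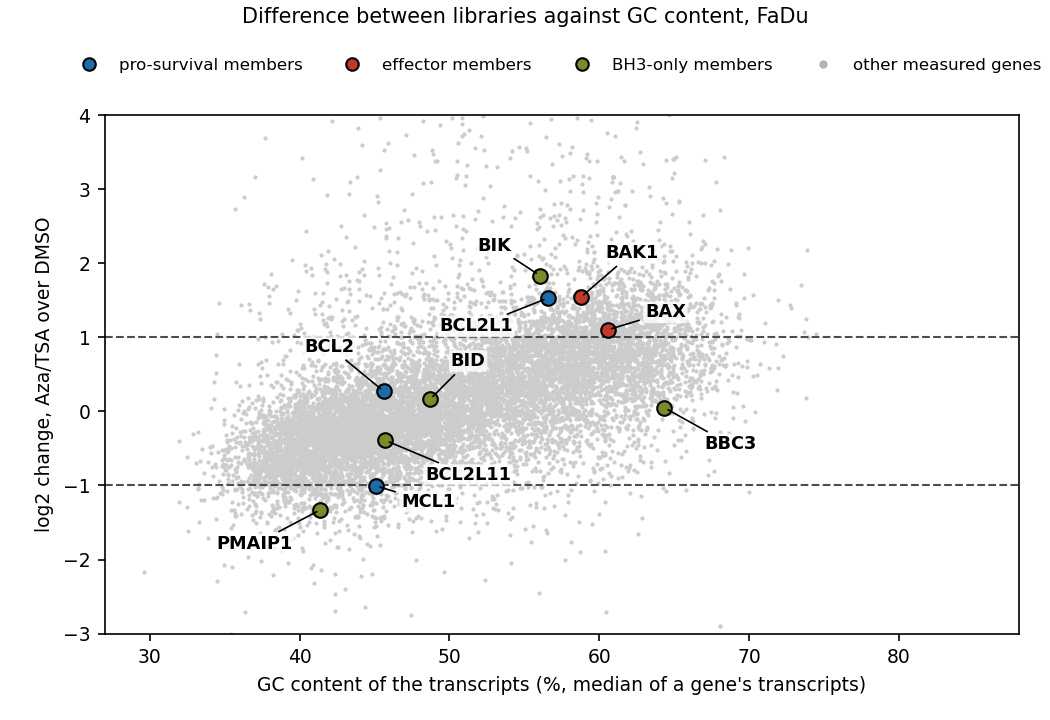
Log2 change, treated over DMSO, against the GC content of transcripts for measured genes (grey) and the 10 BCL2 family genes (coloured by class), 1 library per group. Dashed lines mark 2-fold, and 147 genes lie outside the plotted range of −3 to 4; the 4 higher members lie at 56.0 to 60.6% GC and the 2 lower ones at 41.4 and 45.1%.

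Among 13 further genes of the family, 8 were measured, with 2 higher and 1 lower and a median log2 change of 0.21. After GC correction 1 was higher and 3 were lower. The shares over all genes were 16.1% higher and 5.21% lower as deposited, and 7.41% and 4.49% after correction. BOK, a relative of BAX and BAK1 able to form pores on its own, was at 16.6 FPKM in the treated library and at 1.99 FPKM in the DMSO library, a log2 change of 2.56, or 1.58 after correction. All 3 pore-forming genes of the family, BAX, BAK1 and BOK, were thus higher as deposited, and BOK alone among them after correction. With its low DMSO value, BOK was outside the genes on which the trend was fitted. BCL2L12, an atypical member, was at 15.0 FPKM treated and 5.14 FPKM with DMSO, and its log2 change of 1.38 became 0.84 on correction. BNIP3L, a receptor for the removal of mitochondria, was at 11.7 FPKM treated and 28.0 FPKM with DMSO, with log2 changes of −1.19 as deposited and −1.03 corrected. BCL2A1, BCL2L10, BCL2L14, BCL2L15 and BMF stayed under 1 FPKM in both libraries.

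None of 11 genes of the apoptosome and the caspases, which act after the membrane opens, was 2-fold higher or lower, as deposited or corrected, with a median of −0.11. For this list and the next, the shares over all genes were 16.1% higher and 5.21% lower as deposited, and 7.41% and 4.49% after correction. The widest differences were DFFA, the inhibitor of the nuclease that cuts DNA in apoptosis, at 16.2 FPKM treated and 8.78 FPKM with DMSO, CASP9, the initiator caspase of this route, at 11.0 FPKM treated and 6.55 FPKM with DMSO, and APAF1, its scaffold, at 3.35 FPKM treated and 5.36 FPKM with DMSO. Of 9 inhibitor of apoptosis proteins and their antagonists, 8 were measured, 1 was higher and none lower (median 0.12), and none was higher after correction. The higher gene was HTRA2, a mitochondrial protease that counters these inhibitors, at 12.4 FPKM treated and 4.94 FPKM with DMSO. The inhibitor BIRC2 was at 13.3 FPKM treated and 27.2 FPKM with DMSO, a log2 change of −0.98, and NAIP at 2.62 FPKM treated and 5.51 FPKM with DMSO. These 2 counted as lower with a pseudocount of 0.1 and on the TPM scale. With median ratio scaling or length correction 1 gene of the list was lower, and with a pseudocount of 5 or GC correction none was. After GC correction BIRC2 was at −0.66 and NAIP at −0.54. BIRC5, which encodes survivin, was at 79.8 FPKM treated and 63.4 FPKM with DMSO.

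On the death receptor route that leads to BID, 10 of 12 genes were measured, none was higher and 1 was lower, with a median of 0.05. For this list and those that follow, the shares over all genes were 16.1% higher and 5.21% lower as deposited. After correction they were 7.41% and 4.49%. The lower gene was TNFSF10, which encodes the ligand TRAIL, at 9.25 FPKM in the treated library and at 50.3 FPKM in the DMSO library, a log2 change of −2.32 and of −1.93 after correction. TNFRSF1A, a receptor for TNF, was at 79.6 FPKM treated and 48.8 FPKM with DMSO, and its adaptor TRADD at 8.38 FPKM treated and 3.96 FPKM with DMSO. Of 12 outer membrane partners, all measured, 1 was higher and none lower, with a median of −0.10 and none higher after correction. TOMM40, the import channel, was at 36.7 FPKM treated and 12.2 FPKM with DMSO. TOMM20, an import receptor, was at 43.9 FPKM treated and 73.4 FPKM with DMSO, and DNM1L, which divides mitochondria, at 27.6 FPKM treated and 44.4 FPKM with DMSO. In the list on the turnover of MCL1 and BIM proteins 1 of 11 genes was higher and none lower (median 0.04), and none was higher after correction. That gene was MAPK3, which encodes the kinase ERK1, at 57.8 FPKM treated and 22.2 FPKM with DMSO. DUSP6, a phosphatase of this kinase, was at 18.5 FPKM treated and 10.9 FPKM with DMSO, and the ubiquitin ligase MARCH5 at 10.7 FPKM treated and 18.3 FPKM with DMSO.

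Among 10 transcription factors known to act on BH3-only genes and TRIB3, a pseudokinase of the ATF4 stress response, 10 of 11 genes were measured. As deposited 1 was higher and 3 were lower, with a median of −0.44, against 16.1% and 5.21% of all measured genes. After correction none was higher and 4 were lower, against 7.41% and 4.49% of all genes. TP63, a factor that specifies squamous cells, was at 23.2 FPKM treated and 73.7 FPKM with DMSO, and MYC at 91.3 FPKM treated and 258 FPKM with DMSO. TRIB3, the other lower gene, had a log2 change of −1.11, or −1.93 after correction. E2F1, a cell cycle factor, was at 13.5 FPKM treated and 4.82 FPKM with DMSO, and its log2 change of 1.32 became 0.48 on correction.

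**Figure D5:**
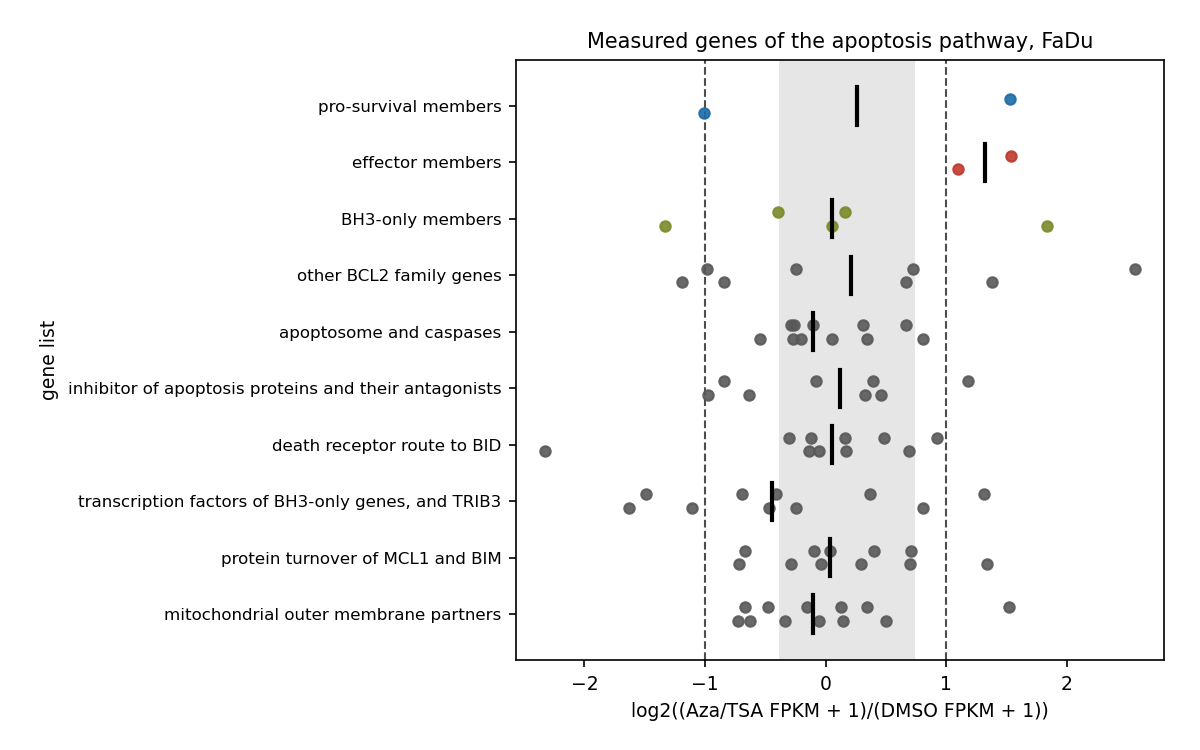
Log2 change, treated over DMSO on the FPKM + 1 scale, of each measured gene in 10 lists of the apoptosis pathway, 1 library per group; black bars are medians, the grey band is the range between the quartiles of all measured genes and dashed lines mark 2-fold. The effectors BAX and BAK1 have the highest list median, 1.32. None of the 11 genes of the apoptosome and caspases lies past 2-fold, against 16.1% higher and 5.21% lower among all measured genes.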

How the data were processed

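Polyadenylated RNA of FaDu cells, treated with Aza and TSA or with DMSO, was sequenced from 1 library per group. The authors deposited 1 table of FPKM with a column per library, per the file headers, and the submitters' processing notes name TopHat 1.3.2, Cufflinks 2.0.2 and the hg19 build. Annotation, filters and any scaling of the columns were not given in the sources used here. Changes were computed here as log2((treated FPKM + 1)/(DMSO FPKM + 1)), which understates changes of low genes, after 45 repeated rows were summed. Genes at 1 FPKM or more in either library counted as measured, a rule that a difference can itself fulfil. GC content was the median over the transcripts of a gene in GENCODE release 29, found for 85.3% of measured genes. Its lowess trend (fraction 0.3, statsmodels 0.14.6) was fitted on genes that reached 5 FPKM in each library. The steps were tested on simulated data with changes wider than 2-fold, planted in genes at 5 FPKM or more in the DMSO library. Planted changes near the threshold or in lower genes were not covered. The genes named were all members, the 3 measured genes with the widest change of each list, BIRC5, and of the squamous markers those of highest mean. CD68, CD14, CD3D, PTPRC, CDH5, KDR, CLDN5, COL1A1, THY1, GAPDH and TRIB3 were named after their values were seen. A planned gene and list are not reported here. Members and lists were chosen with earlier results of these data known. Other pseudocounts, filters, scalings and corrections were tried. The 2 UMSCC47 columns were not used.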

Additional observations from a re-analysis of the deposited data

How the results depend on the processing

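With 1 library per group, the results could only be recomputed under other settings. The count of 4 higher members was 4 under every pseudocount, scaling and length correction tried. Row choice could not change it, as each member had a single row. The other filters only added BCL2 or dropped BBC3, neither past 2-fold, so they could not change it either. It was 1 after GC correction, alone or with a filter at 5 FPKM, and with the GC content of the longest transcript. The count of 2 lower members was 1 with a pseudocount of 5 and 1 after length correction. It was 0 after GC correction, alone or with the filter at 5 FPKM, and 1 with the longest transcript. There the lower gene was BBC3 at −1.04, a gene outside those fitted for the trend. The effector median of 1.32 was 0.61 after GC correction, with or without that filter, and 0.64 with the longest transcript. The pro-survival median ranged from 0.02 to 0.29 and the BH3-only median from −0.32 to 0.08, neither past 2-fold. The last of these settings and the joint one were chosen after seeing the data. No measured member past 2-fold changed sign, and BBC3 alone of those within 2-fold did. MCL1, which lies at the threshold, ranged from −1.08 to −0.83, BCL2L1 from 0.94 to 1.58, BAX from 0.35 to 1.13, BAK1 from 0.86 to 1.63, BIK from 1.29 to 1.92 and PMAIP1 from −1.45 to −0.81. Scaling to TPM and to the median ratio moved the median of all genes by −0.03 and −0.05 on the log2 scale. Of 154 list counts recomputed, 126 stayed within 1.5 times, and a 0 that stayed 0 was counted among them. The list counts as deposited were only 0 to 3, so that this says little about their stability. The cause of the trend on GC content was not tested. No paired analysis was possible because each group holds 1 library. Depth is unknown, so that BCL2, BBC3 and other genes near 1 FPKM may rest on few reads.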
